A study of Mus musculus with 12 samples.

Results

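The S100 calcium-binding proteins described here are the products of 8 genes: S100a1, S100a4, S100a6, S100a8, S100a9, S100a10, S100a11 and S100a13. They were picked by gene symbol from a table of raw read counts that lists 24391 symbols. All 8 were in the table, and all 8 passed the low-count filter that left 13221 genes for testing. The counts are from CD11b dendritic cells (DCs), the antigen-presenting class marked by the integrin CD11b, of wild-type C57BL/6J mice aged 8 to 12 weeks. Every mouse, controls included, had been given an adenovirus that cannot replicate, by aspiration into the trachea, and no library came from a mouse without virus. The control vector, AdCL, was empty, and AdTGFb1 made the pig form of TGF-β1 in an active state. The titles place the libraries in experiment 1 (AdCL DC 7, 8 and 9 against AdTGFb1 DC 14, 52 and 54) and experiment 3 (AdCL DC 943, 944 and 949 against AdTGFb1 DC 954, 955 and 956), which gives 3 libraries a group and 12 in all. Not given in the sources used here are the organ, the sorting gate, the time after the vector and whether a library stands for 1 animal, so the p-values measure the spread between these libraries.

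S100 proteins are small proteins with a pair of EF-hands, the helix-loop-helix folds that bind calcium, and most of them work as dimers that grip other proteins when calcium rises. S100a8 and S100a9 join into calprotectin, which neutrophils and monocytes hold in large amounts and release as an alarm signal for the receptors TLR4 and RAGE. S100a10 is the exception that has lost calcium binding and sits on annexin A2 below the cell membrane. S100a11 binds annexin A1, S100a4 binds non-muscle myosin and serves motile cells, and S100a6 binds annexins and calcyclin-binding protein. S100a13 takes part in the release of interleukin-1α and a fibroblast growth factor without a signal peptide, and S100a1 is best known from heart and skeletal muscle.

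In the RefSeq annotation of the mouse build GRCm38.p6, which is not the build of the counts, all 8 genes lie on chromosome 3. S100a1 (90511034 to 90514330, minus strand), S100a13 (90514233 to 90524581), S100a4 (90603770 to 90606045), S100a6 (90612894 to 90614414), S100a8 (90669071 to 90670034) and S100a9 (90692630 to 90695721, minus strand) fall within 184.7 kb. S100a11 (93520496 to 93526288) and S100a10 (93555117 to 93564645) form a second group of 44.15 kb, 2825 kb away. The start sites around which the RefSeq promoter windows of S100a1 and S100a13 were cut, 90514330 and 90514435, are 105 bases apart on opposite strands. The RefSeq S100a13 model as a whole begins further upstream, at 90514233, and so overlaps the RefSeq span of S100a1. In the GENCODE M21 annotation no exon of either gene overlaps another gene's exon. The strand setting of the counting is unknown here, so reads of these neighbours cannot be told apart with certainty. S100a4 shares exon sequence on the same strand with Gm42674, which was not analysed here.

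Promoter windows from RefSeq (GRCm38.p6), matched by symbol for 7 of the 8 genes, are printed for 5 genes whose counts the results turn on. They run 5′ to 3′ on the gene's strand and stop before the first annotated exon, and capitals mark the matched motifs.
S100a9: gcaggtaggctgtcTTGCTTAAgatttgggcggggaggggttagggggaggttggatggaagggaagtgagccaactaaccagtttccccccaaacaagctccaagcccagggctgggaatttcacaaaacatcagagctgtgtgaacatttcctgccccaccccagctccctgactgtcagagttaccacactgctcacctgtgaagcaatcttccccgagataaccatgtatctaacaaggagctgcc
S100a8: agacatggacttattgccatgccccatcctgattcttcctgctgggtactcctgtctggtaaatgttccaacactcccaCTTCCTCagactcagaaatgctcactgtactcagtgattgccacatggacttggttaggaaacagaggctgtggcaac
S100a4: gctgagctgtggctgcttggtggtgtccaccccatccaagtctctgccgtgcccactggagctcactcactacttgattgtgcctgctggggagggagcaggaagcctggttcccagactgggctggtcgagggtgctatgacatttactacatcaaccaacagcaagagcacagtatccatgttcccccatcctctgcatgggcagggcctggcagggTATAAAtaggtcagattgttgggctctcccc
S100a6: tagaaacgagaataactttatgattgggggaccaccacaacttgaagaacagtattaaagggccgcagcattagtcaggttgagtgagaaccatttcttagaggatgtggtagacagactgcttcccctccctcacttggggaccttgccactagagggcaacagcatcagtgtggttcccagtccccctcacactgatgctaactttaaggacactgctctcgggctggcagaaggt
S100a11: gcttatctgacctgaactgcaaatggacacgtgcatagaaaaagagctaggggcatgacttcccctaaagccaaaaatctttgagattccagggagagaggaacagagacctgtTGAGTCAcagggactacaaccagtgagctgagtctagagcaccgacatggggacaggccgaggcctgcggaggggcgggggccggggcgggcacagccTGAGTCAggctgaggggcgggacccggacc
S100a9 and S100a8, the calprotectin pair, are set beside each other because their counts parted in experiment 1, and S100a4, S100a6 and S100a11 because their counts fell in experiment 3. The windows are chr3:90695722-90695971 on the minus strand for S100a9 and, on the plus strand, chr3:90668821-90668977 for S100a8, chr3:90603520-90603769 for S100a4, chr3:90612644-90612881 for S100a6 and chr3:93520246-93520487 for S100a11. A script searched both strands for the letters of 4 motifs, and none of the matches overlap. The S100a9 window held TTGCTTAA, a match to the C/EBP letters TTGCNNAA, and the S100a8 window held CTTCCTC, the PU.1 letters GAGGAAG on the opposite strand. The S100a11 window held 2 copies of the AP-1 letters TGANTCA, with their first base 136 and 38 bases before the start. In S100a4 the TATA letters TATAAA began 31 bases before the start, and the S100a6 window held none of the 4. Among 32851 windows of 250 bases before a RefSeq start, 9.56% held the C/EBP letters, 10.6% the PU.1 letters, 6.75% the AP-1 letters and 12.4% the TATA letters. Among the 7 members' own windows of that length these were 1, 1, 1 and 2. Such a match is a run of letters and not a measured binding site.

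The libraries held 10099912 to 15594546 counts, at which 3 counts stand for 0.181 to 0.31 CPM, and this floor covers counting error only. CPM is the read count scaled to each library's depth, with TMM-scaled library sizes. The labelled cell type was checked with 14 dendritic-cell genes (among them Cd74, H2-Ab1, Itgax and Ccr7), all detected in every library. Their summed level moved with the vector, at 29483 to 32763 CPM in AdCL and 19500.4 to 23915 CPM in AdTGFb1 of experiment 1, without overlap, and at 28292 to 38343 CPM and 24855 to 30928 CPM in experiment 3, with overlap. Their mean centred log2 level, which weights each gene equally, did not overlap in experiment 3. It was 0.31 to 0.59 in AdCL and -0.38 to -0.08 in AdTGFb1. In that experiment 6 of the 14 fell and 2 rose, where 4.46% of all genes fell and 1.97% rose. Over both experiments 7 of the 14 fell and 2 rose, where 10.4% of all genes fell and 6.78% rose. Those that fell included Ccr7 (-1.69) and Cd74 (-0.43) and, named after their values were seen, Flt3 (-1.30), Irf4 (-1.36) and Zbtb46 (-1.63). The 2 that rose, named likewise, were Ciita (0.61) and Sirpa (0.58). Xist was at most 2.29 CPM in AdCL DC 7, 8 and 9 and AdTGFb1 DC 14, which marks them as male, and at least 1126 CPM in the other 8 libraries, so in experiment 1 sex moved with the vector and in experiment 3 every library was female. The summed level of 12 endothelial markers was 271 to 751 CPM in AdCL of experiment 1, against 82.7 to 230 CPM in the other 9 libraries. Fibroblast markers came to 147 to 400 CPM against 35.7 to 130 CPM, and epithelial sums overlapped. Of the genes tested, 11 of 12 endothelial, 6 of 9 fibroblast and 5 of 12 epithelial genes fell within experiment 1. There 1 epithelial gene rose, and of all genes 14.1% fell and 10.6% rose. In AdTGFb1 of experiment 1 the summed level of 15 monocyte markers (mostly Fn1 and Lyz2) was 11453 to 21538 CPM, against 3808 to 9301 CPM elsewhere. In the same 3 libraries 13 alveolar macrophage markers came to 1454 to 2620 CPM, against 632 to 1087 CPM elsewhere. Most of this sum was Spp1 and Mrc1, with means of 1052 and 705 CPM in AdTGFb1 of experiment 1. In experiment 3 these sums overlapped between the vectors. The mean centred log2 level, which weights each gene of a list equally, did not: it was 0.22 to 0.50 in AdCL and -0.53 to -0.22 in AdTGFb1 for the monocyte list, and -0.02 to 0.52 and -1.09 to -0.68 for the macrophage list. In that experiment 3 of the 15 monocyte genes fell and 2 rose, and 1 of the 13 macrophage genes fell. Of all genes, 4.46% fell and 1.97% rose there. In bulk RNA, fewer cells of a type and less RNA per cell cannot be told apart. The part of these differences in the S100 values was not tested, beyond terms for sex, endothelial and neutrophil markers in the fit over both experiments. Sex differed within 1 group only, AdTGFb1 of experiment 1, where DC 14 was the male library. The sex term can therefore also take up a difference in the vector's effect between the experiments.

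Per kilobase of transcript, the measure that allows genes to be set against each other, S100a4 was highest in AdCL, at 457 ± 55.7 CPM per kb (SD, n = 6). S100a10 followed at 260 ± 22.6, S100a11 at 244 ± 56.6 and S100a6 at 195 ± 39.0 CPM per kb. In this order each of these 3 differed from the next by less than 1 SD of S100a11. The order of these 3, in either vector, depends on the transcript taken. The lengths used were 685 bases for S100a10 and 731 for S100a6, whose exons together cover 1212 and 1367 bases. S100a11 has 511 bases by either measure. The low tier held S100a1 at 42.2 ± 18.4, S100a13 at 35.5 ± 5.18 and S100a9 at 31.7 ± 12.8 CPM per kb, again within 1 SD of S100a1, and S100a8 came last at 14.5 ± 9.17. In AdTGFb1 (n = 6) S100a4 was again first at 338 ± 175 CPM per kb, with S100a6 at 187 ± 97.1, S100a11 at 185 ± 88.1 and S100a10 at 180 ± 86.1. S100a8 at 4.28 ± 6.59 and S100a9 at 2.53 ± 2.57 CPM per kb were within 1 SD of each other. Their order differed by experiment, with S100a8 at 8.05 ± 8.11 and S100a9 at 0.371 ± 0.531 CPM per kb in AdTGFb1 of experiment 1, and 0.506 ± 0.450 and 4.69 ± 1.49 CPM per kb in that of experiment 3 (n = 3 each). Summed over the 8 genes, the level was 689.8 to 783 CPM in AdCL and 687 to 1014 CPM in AdTGFb1 of experiment 1, ranges that overlapped. In experiment 3 the sum was 742 to 807 CPM in AdCL and 312 to 408 CPM in AdTGFb1, with no overlap.

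**Figure D1:**
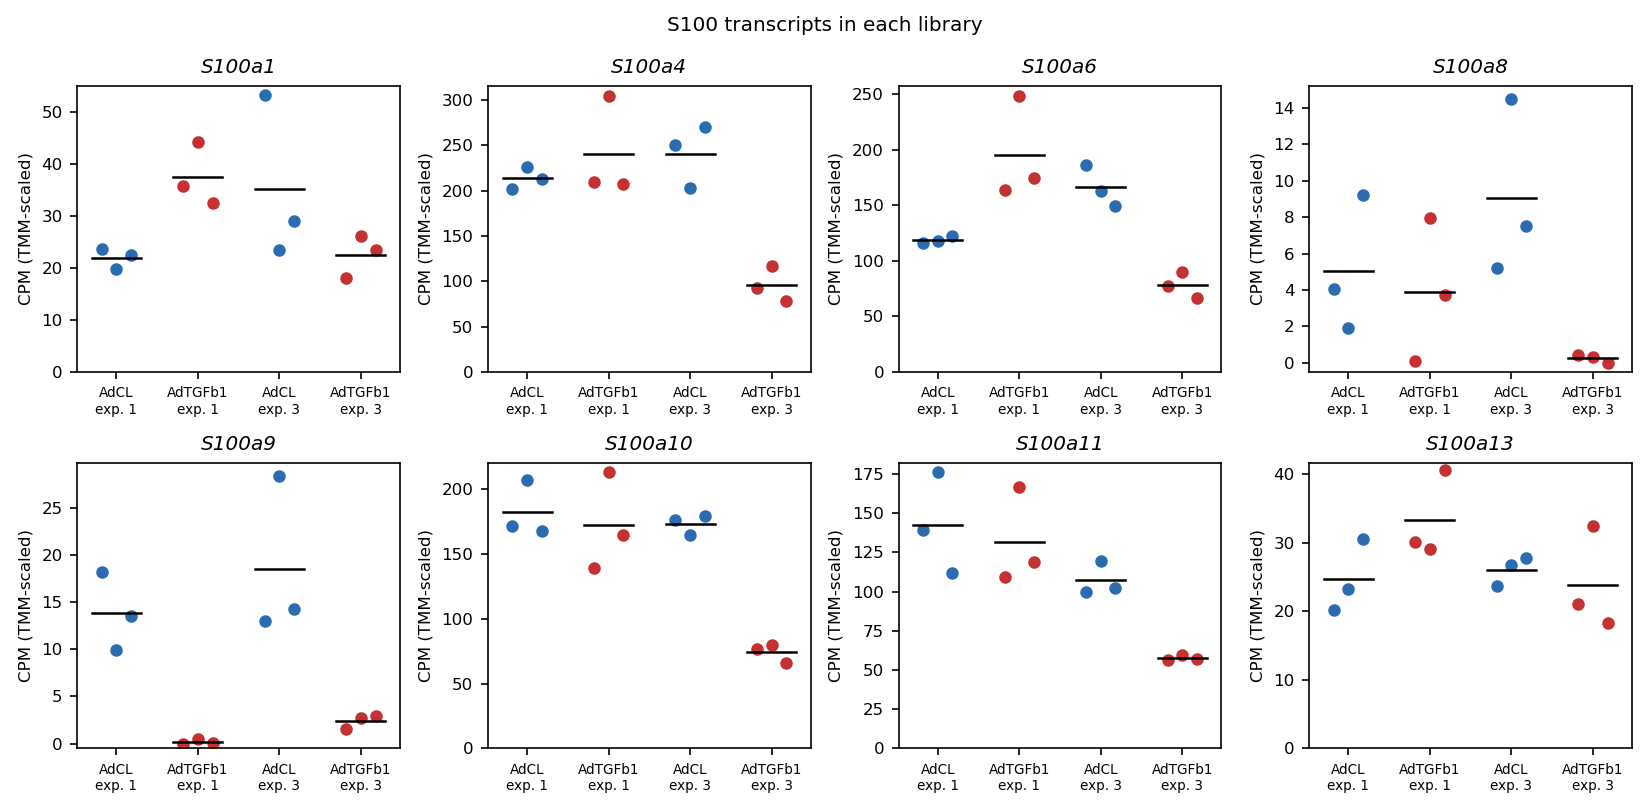
Level of each of the 8 S100 genes in CPM on a linear axis of its own (y), by vector and experiment (x), with 1 point per library (AdCL blue, AdTGFb1 red) and a bar at the group mean. S100a9 is lower in AdTGFb1 in both experiments, while S100a4, S100a6, S100a10 and S100a11 drop in AdTGFb1 of experiment 3 and not in that of experiment 1.

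The vectors were first compared over all 12 libraries, with the experiment as a term, to ask which S100 genes differed with the vector. S100a9, S100a10 and S100a11 were lower in AdTGFb1, and 0 of the 8 genes were higher. Over all genes tested, 10.4% were called lower and 6.78% higher in this comparison (edgeR's quasi-likelihood test, Benjamini-Hochberg adjusted p under 0.05). The median log2 change was -0.54 over the 8 genes and -0.00196 over all genes. S100a9 was the one member for which all 6 AdTGFb1 libraries lay below all 6 AdCL libraries, a pattern shown by 4.46% of genes. For none of the 8 did all 6 lie above, which 1.86% of genes did. Within experiment 1, 1 member rose (S100a6) and 1 fell (S100a9), where 10.6% of genes rose and 14.1% fell. Within experiment 3, 6 of the 8 fell (S100a4, S100a6, S100a8, S100a9, S100a10 and S100a11) and 0 rose, where 4.46% of genes fell and 1.97% rose. The median log2 change of the 8 was 0.0433 in experiment 1, against -0.0255 over all genes, and -1.16 in experiment 3, against 0.00285. The interaction, which is the vector's log2 effect in experiment 3 minus that in experiment 1, tests this difference itself. It was called lower for 4 members (S100a1, S100a4, S100a6 and S100a10) and higher for 1 (S100a9), where 2.59% of genes were called lower and 3.43% higher.

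**Figure D2:**
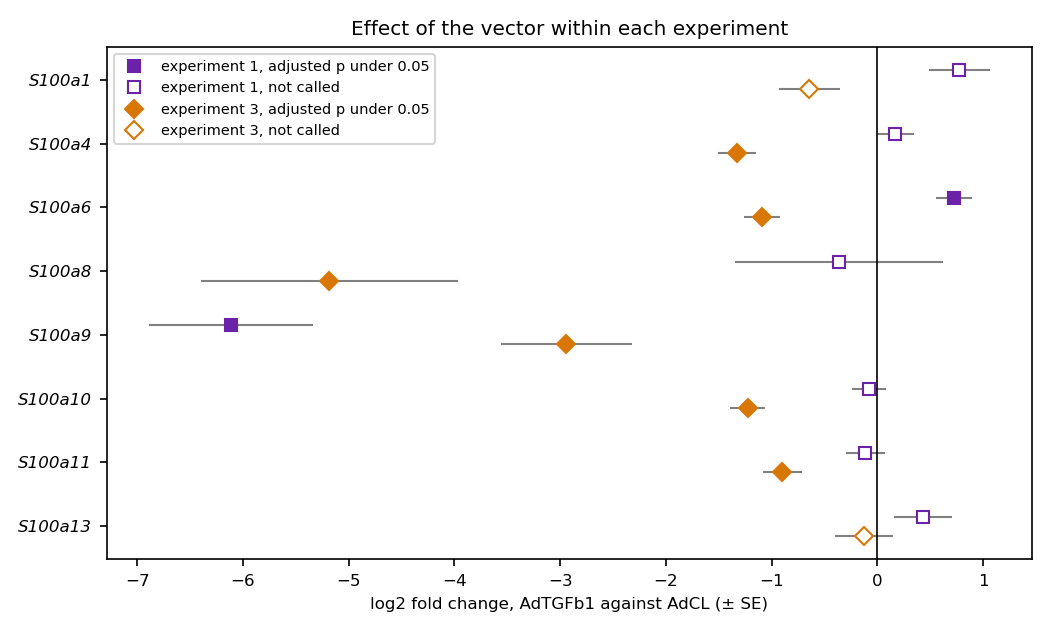
Log2 fold change of AdTGFb1 against AdCL with its SE for each S100 gene, within experiment 1 and within experiment 3. S100a6 goes from 0.72 in experiment 1 to -1.09 in experiment 3, and S100a9 is below 0 in both.

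S100a9, the larger subunit of calprotectin, was the S100 gene that fell with AdTGFb1 in both experiments. In experiment 1 its level was 18.2, 9.95 and 13.6 CPM in AdCL DC 7, 8 and 9 (176, 100 and 146 reads), and AdTGFb1 DC 14, 52 and 54 held 0, 7 and 1 reads. Its level in experiment 3 was 12.98, 28.4 and 14.3 CPM in AdCL DC 943, 944 and 949 and 1.54, 2.72 and 2.96 CPM in AdTGFb1 DC 954, 955 and 956. Every AdTGFb1 library was therefore low and every AdCL library higher, with the lowest levels in AdTGFb1 of experiment 1. The mean was 16.2 ± 6.53 CPM in AdCL and 1.30 ± 1.32 CPM in AdTGFb1 (SD, n = 6 each), and S100a9 fell by 4.23 ± 0.64 (SE) on the log2 scale, with an adjusted p of 0.000152. It fell by 6.11 ± 0.78 in experiment 1 (adjusted p = 5.01e-06) and by 2.94 ± 0.62 in experiment 3 (adjusted p = 0.00454). The first of these rests on 8 AdTGFb1 reads, so its size depends on how the fit treats low counts. The difference between the experiments, 3.17 ± 0.94, had an adjusted p of 0.0464. It lost the call (0.0663 to 0.121) without AdCL DC 7, 9, 943 or 949 or AdTGFb1 DC 14, 54, 955 or 956.

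S100a8, the partner of S100a9, had few reads and moved differently in the 2 experiments. Its level in experiment 1 was 4.03, 1.89 and 9.21 CPM in AdCL DC 7, 8 and 9, while AdTGFb1 DC 14, 52 and 54 held 1, 111 and 54 reads, the last 2 being 7.95 and 3.71 CPM. Experiment 3 gave 5.19, 14.5 and 7.51 CPM in AdCL DC 943, 944 and 949, and AdTGFb1 DC 954, 955 and 956 held 6, 4 and 0 reads. The groups overlapped in experiment 1 and were apart in experiment 3, where all 3 AdTGFb1 libraries were near the floor. The change was -0.37 ± 0.98 in experiment 1 (adjusted p = 0.830). In experiment 3 S100a8 dropped by 5.18 ± 1.22 log2 units (adjusted p = 0.00998), a call lost without AdTGFb1 DC 956 (0.0505). Over both experiments the change of -2.56 ± 1.14 did not pass the test (adjusted p = 0.138). It passed without AdTGFb1 DC 52 (-3.27, adjusted p = 0.0390), with DESeq2 (-2.69, adjusted p = 0.0133) and without a filter (-2.56, adjusted p = 0.0368). With a term for endothelial markers, whose limit is given above, it passed too (-3.84, adjusted p = 0.0181). The change also passed with a term for sex (-5.34, adjusted p = 0.00052), which depends on the 1 male AdTGFb1 library, DC 14, with 1 S100a8 read. It was -1.55 (adjusted p = 0.287) with a term for neutrophil markers. The interaction of -4.82 ± 1.52 did not pass either (adjusted p = 0.0602). It passed without AdTGFb1 DC 14 (-5.40, adjusted p = 0.0116), with DESeq2 (adjusted p = 0.0155) and without a filter on low counts (adjusted p = 0.00403).

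The make-up of the calprotectin pair can be read within each library as the percentage of S100a8 among S100a8 and S100a9 reads, without regard to depth. In AdCL it was 18.1%, 15.97% and 40.4% in experiment 1 and 28.6%, 33.8% and 34.5% in experiment 3. In AdTGFb1 of experiment 1 it was 94.1% in DC 52 (111 of 118 reads, exact Clopper-Pearson 95% interval 88.2% to 97.6%) and 98.2% in DC 54 (54 of 55 reads, 90.3% to 99.95%). DC 14 held 1 read of the pair in all, so its share is not defined in any useful way. In AdTGFb1 of experiment 3 the share was 21.4% (6 of 28 reads, 8.30% to 41.0%) in DC 954, 10.5% (4 of 38, 2.94% to 24.8%) in DC 955 and 0% (0 of 49, up to 7.25%) in DC 956. The S100a8 transcript was thus the main one of the pair in DC 52 and DC 54, and S100a9 was in the other libraries with more than 1 read. No test was made of this ratio, and the intervals cover counting error only.

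**Figure D3:**
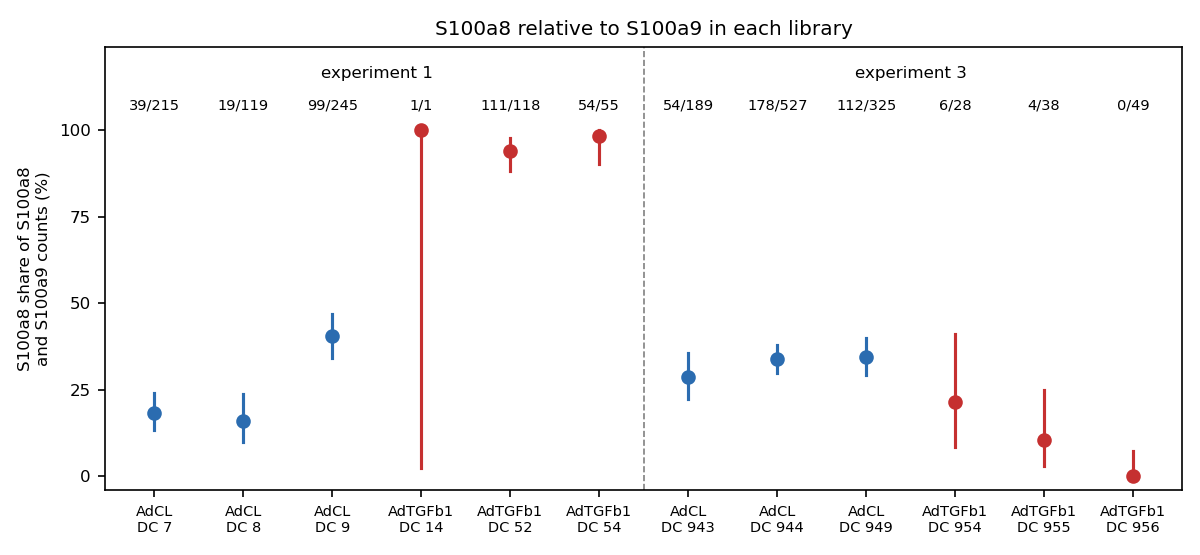
S100a8 reads as a percentage of S100a8 and S100a9 reads in each library (AdCL blue, AdTGFb1 red), with exact 95% intervals as vertical lines and the reads behind each value above it. AdTGFb1 DC 52 and 54 lie at 94.1% and 98.2%, the AdCL libraries between 15.97% and 40.4%, and AdTGFb1 DC 14 rests on 1 read.

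Because neutrophils are rich in calprotectin, a list of 25 neutrophil genes was read beside the pair. Of these, 24 were in the table and 14 were tested, and Camp, Elane, BC100530 and Stfa1 had no count in any library. The summed level was 782 to 1041 CPM in AdCL and 276 to 372 CPM in AdTGFb1 of experiment 1, and 589.7 to 794 CPM against 325 to 491 CPM in experiment 3. The sum was thus lower in AdTGFb1 without overlap, and 6 to 14 of the genes were at 0 in each library. Most of the sum was Il1r2, the decoy receptor for interleukin-1, whose mean was 760.4 and 176 CPM in AdCL and AdTGFb1 of experiment 1 and 514 and 237 CPM in experiment 3. The mean centred log2 level of the 14 tested genes overlapped between the vectors in experiment 1 (-0.29 to 0.26 in AdCL, -0.30 to 0.15 in AdTGFb1), and did not in experiment 3 (0.07 to 1.13 and -0.75 to -0.23). Over both experiments 2 of the 14 fell and 1 rose, where 10.4% of all genes fell and 6.78% rose. The median log2 change of the 14 was -1.12. With a term for the neutrophil markers in the fit, S100a9 fell by 4.78 (adjusted p = 0.00135). The same term ended the calls of S100a10 (-0.32, adjusted p = 0.270) and S100a11 (-0.15, adjusted p = 0.588). In any fit this term can also take up the vector's effect in experiment 3, where the levels did not overlap between the vectors. The neutrophil level and the vector cannot be told apart there.

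**Figure D4:**
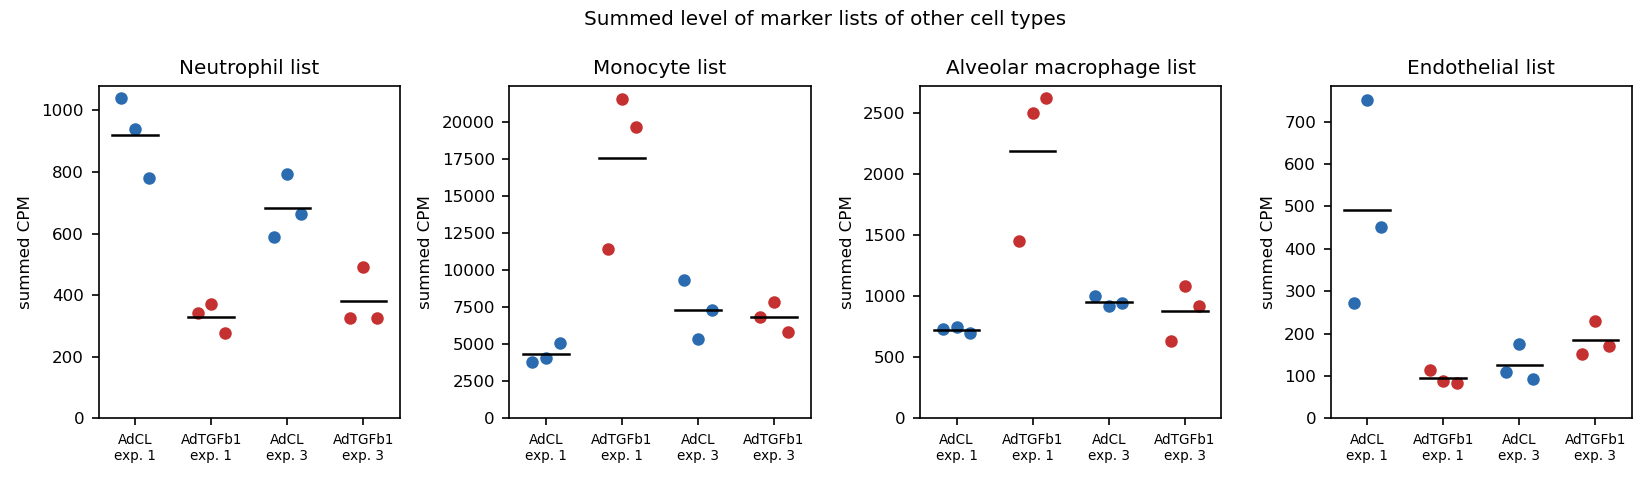
Summed CPM of the neutrophil, monocyte, alveolar macrophage and endothelial lists on linear axes (y), by vector and experiment (x), with 1 point per library (AdCL blue, AdTGFb1 red) and a bar at the group mean. The neutrophil sum is lower in AdTGFb1 in both experiments, and the monocyte and alveolar macrophage sums are highest in AdTGFb1 of experiment 1.

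S100a10 and S100a11, the annexin-binding members, were lower in AdTGFb1 of experiment 3 and showed no such drop in experiment 1. S100a10 was at 172, 207 and 168 CPM in AdCL DC 7, 8 and 9 and at 139, 213 and 164 CPM in AdTGFb1 DC 14, 52 and 54. The levels in experiment 3 were 176, 165 and 179.5 CPM in AdCL DC 943, 944 and 949 and 76.5, 80.0 and 65.5 CPM in AdTGFb1 DC 954, 955 and 956. The first set of groups overlapped, and in the second every AdTGFb1 library was well under every AdCL library. S100a10 fell by 1.23 ± 0.17 on the log2 scale in experiment 3, or 2.34-fold (adjusted p = 7.17e-05), and changed by -0.08 ± 0.16 in experiment 1 (adjusted p = 0.761). The effects differed by -1.15 ± 0.23 (adjusted p = 0.00397). Over both experiments S100a10 fell by 0.65 ± 0.18 (adjusted p = 0.0175). That call was lost without AdTGFb1 DC 954 (0.0508) or DC 956 (0.0532) and without a term for the experiment (-0.53, adjusted p = 0.152).

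S100a11 was at 139, 176 and 112 CPM in AdCL and 109, 167 and 119 CPM in AdTGFb1 of experiment 1. In experiment 3 its levels were 99.9, 119 and 102 CPM in AdCL and 56.1, 59.3 and 57.1 CPM in AdTGFb1. The AdTGFb1 libraries of experiment 3 lay close together and below every other library, whereas those of experiment 1 were mixed with AdCL. It fell by 0.90 ± 0.19 in experiment 3, or 1.87-fold (adjusted p = 0.00390), and the change in experiment 1 was -0.11 ± 0.18 (adjusted p = 0.702). The difference between these effects, -0.79 ± 0.26, did not pass the test (adjusted p = 0.0754). It passed without AdCL DC 8 (0.0314) or AdTGFb1 DC 14 (0.0447) and without a filter on low counts (0.0306). S100a11 fell by 0.50 ± 0.16 over both experiments (adjusted p = 0.0414), near the threshold. Leaving out any of AdCL DC 7, 8, 943, 944 or 949 or AdTGFb1 DC 14, 54, 954, 955 or 956 ended this call (0.0534 to 0.125), as did leaving out the experiment term (-0.40, adjusted p = 0.328).

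S100a4 and S100a6, which lie close together on the chromosome, showed the largest differences between the experiments among the abundant members. S100a4 was at 202, 227 and 212 CPM in AdCL and 209, 304.3 and 208 CPM in AdTGFb1 of experiment 1. In experiment 3 it was at 249.9, 203 and 271 CPM in AdCL and 92.9, 117.1 and 78.3 CPM in AdTGFb1. DC 52 was the highest AdTGFb1 library of experiment 1, where the groups overlapped, and in experiment 3 the groups were apart. S100a4 fell by 1.33 ± 0.18 on the log2 scale in experiment 3, or 2.51-fold (adjusted p = 6.79e-05), and changed by 0.17 ± 0.17 in experiment 1 (adjusted p = 0.523). The interaction was -1.50 ± 0.25 (adjusted p = 0.000788). Over both experiments its change of -0.58 ± 0.22 did not pass (adjusted p = 0.0854). It passed without AdTGFb1 DC 52 (-0.74, adjusted p = 0.0159), with DESeq2 (adjusted p = 0.0358) and without a filter (adjusted p = 0.00918). It also passed with terms for sex (-0.86, adjusted p = 0.00819) or endothelial markers (-0.88, adjusted p = 0.000688). It was -0.20 (adjusted p = 0.601) with a term for neutrophil markers and -0.43 (adjusted p = 0.298) without the experiment term. The limits given above for the sex, endothelial and neutrophil terms hold here too.

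S100a6 moved in opposite directions in the 2 experiments. It was at 116, 118 and 122 CPM in AdCL and 164, 248 and 174 CPM in AdTGFb1 of experiment 1. The levels in experiment 3 were 186, 163 and 149 CPM in AdCL and 77.5, 90.2 and 66.3 CPM in AdTGFb1. The groups did not overlap in either experiment, with AdTGFb1 above AdCL in the first and below it in the second. S100a6 rose by 0.72 ± 0.17 in experiment 1, or 1.65-fold (adjusted p = 0.00333), and fell by 1.09 ± 0.17 in experiment 3, or 2.13-fold (adjusted p = 0.000309). The interaction was -1.81 ± 0.24 (adjusted p = 0.000126). Over both experiments the change was -0.18 ± 0.25 (adjusted p = 0.683), which became -0.57 (adjusted p = 0.0331) with a term for endothelial markers and 0.24 (adjusted p = 0.565) with one for neutrophil markers. Both terms have the limits given above. The rise in experiment 1 stands beside the higher monocyte and macrophage marker sums of the same 3 AdTGFb1 libraries, whose part in it was not tested. The fall in experiment 3, like that of the other members there, stands beside lower mean centred levels of marker lists in AdTGFb1 of that experiment. These were the dendritic-cell, monocyte, macrophage and neutrophil lists, whose part was not tested either.

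S100a1 and S100a13, the divergent neighbours, were at lower levels and had no call for the vector. S100a1 was at 19.7 to 23.7 CPM in AdCL and 32.6 to 44.2 CPM in AdTGFb1 of experiment 1, without overlap. In experiment 3 it was at 53.3, 23.5 and 29.0 CPM in AdCL and 18.2, 26.1 and 23.4 CPM in AdTGFb1, with overlap. The change was 0.77 ± 0.29 in experiment 1 (adjusted p = 0.0539) and -0.64 ± 0.29 in experiment 3 (adjusted p = 0.227). Their difference of -1.42 ± 0.41 passed (adjusted p = 0.0405). AdCL DC 943 was the highest library for S100a1, and without it the interaction was -1.0 (adjusted p = 0.159). The call was also lost without AdCL DC 8 or 9 or AdTGFb1 DC 52, 54, 954 or 956 (0.0521 to 0.108). In experiment 1 the change of S100a1 passed without AdCL DC 943, 944 or 949 (0.0325 to 0.0476), libraries that enter it only through the shared spread. It also passed with DESeq2 (0.0499) and without a filter (0.0397). Over both experiments S100a1 changed by 0.06 ± 0.27 (adjusted p = 0.908). S100a13 varied least of the 8 genes, with a mean absolute deviation of 0.26 log2 CPM, and was at 20.2 to 30.5 CPM in AdCL and 29.1 to 40.6 CPM in AdTGFb1 of experiment 1, and 23.7 to 27.8 CPM and 18.2 to 32.4 CPM in experiment 3. Its change was 0.43 ± 0.28 (adjusted p = 0.277), -0.13 ± 0.28 (adjusted p = 0.881) and, over both, 0.15 ± 0.21 (adjusted p = 0.678), and the interaction was -0.56 ± 0.39 (adjusted p = 0.453).

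The proteins that S100 dimers bind were read from a list of 24 genes, of which 23 were tested (Syt1 was not). Over both experiments 2 rose and 7 fell, with a median log2 change of -0.26, where 6.78% of all genes rose and 10.4% fell. Anxa2, whose product annexin A2 holds S100a10, was at 542, 594 and 482 CPM in AdCL and 364, 536 and 483 CPM in AdTGFb1 of experiment 1, and at 424, 431 and 481 CPM against 152, 236 and 158 CPM in experiment 3. As with S100a10, the groups overlapped in experiment 1 and were apart in experiment 3. Anxa2 fell by 1.29 ± 0.17 in experiment 3 (adjusted p = 5.89e-05), changed by -0.23 ± 0.17 in experiment 1 (adjusted p = 0.350), and the effects differed by -1.07 ± 0.24 (adjusted p = 0.00840). The ratio of S100a10 to Anxa2 reads was 0.317 to 0.349 and 0.340 to 0.398 in AdCL and AdTGFb1 of experiment 1, and 0.373 to 0.415 and 0.339 to 0.505 in experiment 3, and the ranges of the 2 vectors overlapped in each experiment. Over both experiments Anxa2 fell by 0.76 ± 0.18 (adjusted p = 0.00661), a call lost with a term for neutrophil markers (-0.41, adjusted p = 0.144) and without one for the experiment (-0.62, adjusted p = 0.132).

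Ahnak, the giant scaffold protein that binds the S100a10 and annexin A2 complex, fell in both experiments. It was at 5379.7, 5246 and 4531 CPM in AdCL and 3138, 3948 and 3505 CPM in AdTGFb1 of experiment 1, and at 3647, 3585 and 3473 CPM against 1815, 2264 and 1873 CPM in experiment 3. Its groups were apart in each experiment. Ahnak fell by 0.52 ± 0.12 (adjusted p = 0.00378) and by 0.85 ± 0.13 (adjusted p = 0.000155), and the difference between these did not pass (-0.33 ± 0.18, adjusted p = 0.299). Anxa1, the annexin that S100a11 binds, changed by 0.67 ± 0.19 in experiment 1 (adjusted p = 0.0117) and by -0.80 ± 0.19 in experiment 3 (adjusted p = 0.0111), with an interaction of -1.47 ± 0.27 (adjusted p = 0.00204). Its call in experiment 1 was lost without AdTGFb1 DC 54 (0.0786), and that in experiment 3 without AdCL DC 949 (0.0690) or AdTGFb1 DC 956 (0.0813). Among the other partners that fell over both experiments were Plat, the tissue plasminogen activator (-1.65 ± 0.26), Il1a, the interleukin-1α that S100a13 helps to export (-1.01 ± 0.21), and Tpm1, a tropomyosin (-0.98 ± 0.14). Iqgap1, a scaffold of the cell cortex (-0.35 ± 0.09), and Anxa11 (-0.34 ± 0.11) fell by less. The call of Iqgap1 was lost without AdCL DC 944 (0.0556) and with a term for neutrophil markers (0.124), which also ended that of Il1a (0.0540). The call of Anxa11 was lost in 16 of 19 alternatives (0.0573 to 0.107), among them leaving out any library but AdTGFb1 DC 955. Hltf, a DNA helicase (0.91 ± 0.15), and Ppp5c, a protein phosphatase (0.66 ± 0.19), rose. Ppp5c was not called without AdTGFb1 DC 14 (0.0555) or DC 54 (0.0507), without the experiment term (0.100) or with a term for sex (0.0607), endothelial (0.0683) or neutrophil markers (0.0660). Myh9, the non-muscle myosin bound by S100a4 (0.01 ± 0.11, adjusted p = 0.955), and Cacybp, the calcyclin-binding protein (0.20 ± 0.14, adjusted p = 0.383), did not pass.

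**Figure D5:**
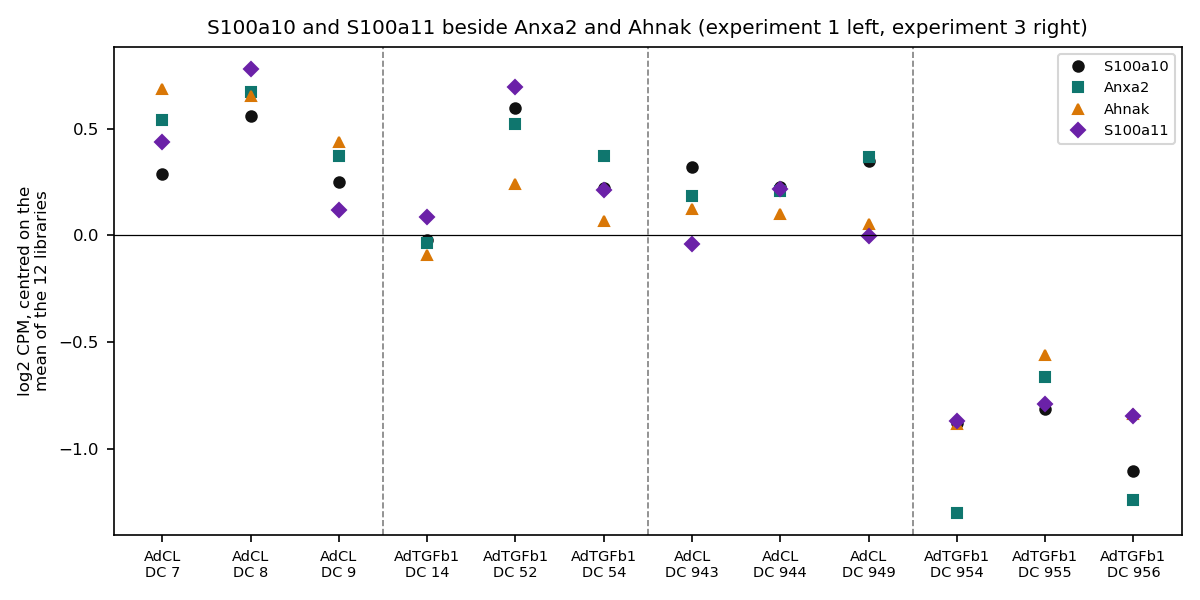
Log2 CPM of S100a10, S100a11, Anxa2 and Ahnak, centred on each gene's mean over the 12 libraries (y), in each library (x), with dashed lines between the groups. S100a10 and Anxa2 are low in AdTGFb1 of experiment 3, while Ahnak is lower in AdTGFb1 in both experiments.

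Receptors for released S100 proteins were read from a list of 9 genes, all tested. Over both experiments 1 was higher and 0 lower, where 6.78% of all genes were higher and 10.4% lower. Their median log2 change was -0.13. Tlr4, the receptor of calprotectin, was at 5.79, 9.55 and 14.1 CPM in AdCL and 35.7, 42.0 and 43.9 CPM in AdTGFb1 of experiment 1. In experiment 3 it was at 32.3, 10.0 and 17.4 CPM in AdCL and 46.7, 41.7 and 43.9 CPM in AdTGFb1. All 6 AdTGFb1 libraries lay above all 6 AdCL libraries, of which AdCL DC 943 was the highest. Tlr4 rose by 1.59 ± 0.28 over both experiments (adjusted p = 0.000628), while S100a9 fell in the same libraries. The rise was 2.04 in experiment 1 (adjusted p = 0.000205) and 1.15 in experiment 3 (adjusted p = 0.0470). The call in experiment 3 was lost in 8 of 15 alternatives (0.0506 to 0.211). Ager, which encodes RAGE, fell by 3.80 ± 0.57 in experiment 1 (adjusted p = 3.78e-05) and changed by 0.48 ± 0.52 in experiment 3 (adjusted p = 0.712). Its interaction was 4.28 ± 0.76 (adjusted p = 0.00168). The mean level of Ager was 44.9 CPM in AdCL of experiment 1, against 3.21 to 9.93 CPM in the other groups. It stands beside the high endothelial and fibroblast sums of those AdCL libraries. Of 12 epithelial genes, 5 fell and 1 rose within that experiment. The part of these cell types in the Ager level was not tested.

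The experiments themselves were compared with the vector as a term. S100a10 was lower in experiment 3 by 0.64 ± 0.18 on the log2 scale (adjusted p = 0.0408), and S100a11 fell by 0.80 ± 0.17 between experiment 1 and experiment 3 (adjusted p = 0.00663). The 0 higher and 2 lower members stand against 3.57% of all genes higher and 2.86% lower. The S100a10 value is an average over vectors whose levels did not behave alike, since its AdCL means were 182 ± 21.8 and 173 ± 7.84 CPM in experiments 1 and 3 and its AdTGFb1 means 172 ± 37.7 and 74.0 ± 7.59 CPM (SD, n = 3 each). Its call was lost without AdCL DC 8 or 944 or any of the 6 AdTGFb1 libraries (0.0555 to 0.121). For S100a11 the AdCL means were 142 ± 32.4 and 107.3 ± 10.6 CPM and the AdTGFb1 means 132 ± 30.7 and 57.5 ± 1.65 CPM.

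Beyond the 8 members, 9 other S100 genes were in the table. S100a3 and S100z had no read in any library, which allows up to 0.181 to 0.31 CPM. S100a2, S100a7a, S100a14 and S100b had 2, 1, 6 and 7 reads summed over the 12 libraries, S100a5 had 38 and S100g 62. S100a16, a broadly expressed member, was the one that passed the filter, with 3, 64 and 9 reads in AdCL and none in AdTGFb1 of experiment 1, and with 0, 28 and 17 against 1, 0 and 5 reads in experiment 3. Its reads lay mostly in AdCL libraries, with the most in AdCL DC 8, and its call as lower (adjusted p = 0.046) was lost in 10 of the 12 fits that left out 1 library.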

How the data were processed

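RNA of CD11b DCs was measured in 12 libraries, 3 for each vector in each of 2 experiments, made from polyadenylated RNA with a directional kit and 10 cycles of PCR, per the labels' protocols. The deposited table holds raw counts per gene symbol. Per the submitters' processing notes, which give no role or order, the tools included STAR 2.5.0c, HTSeq and DESeq2, along with bcl2fastq, FastQC 0.11.4, Trim Galore 0.4.1 and cutadapt 1.9.1, and the genome build was mm9. The sources used here do not give the annotation or the strand setting. The counts were checked to be whole numbers with totals that differ between libraries.

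Comparisons were run in R 4.3.3 with edgeR 4.0.16, TMM scaling, the filterByExpr filter on the 4 groups and the two-sided quasi-likelihood F test. In each comparison the 13221 genes tested shared 1 Benjamini-Hochberg adjustment, and an adjusted p under 0.05 was a call. An additive fit of vector and experiment gave the effect over both experiments and that of experiment 3 against 1, and a model of 4 groups gave the effect within each experiment and the interaction. Each SE is the absolute effect divided by the root of its F value, and so carries the same information as the test. Alternatives were DESeq2 1.42.0 and its size factors, no filter, no experiment term, terms for sex or markers, and leaving out each library. The scripts were tested on simulated data. Transcript lengths are of the first GENCODE M21 transcript.

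The S100 members and all lists were chosen with earlier results of these data known. Genes named are every member, the other S100 genes, each receptor or partner called over both experiments, 7 fixed partners and receptors whatever their result, up to 4 marker genes per list by level, marker genes at 0, and the 3 genes nearest each member in pattern.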

Additional observations from a re-analysis of the deposited data

Results flagged for a closer look

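The vector's effect differed between the experiments by the interaction test of edgeR (effect in experiment 3 minus effect in experiment 1, log2 ± SE) for 5 S100 genes. It was -1.42 ± 0.41 for S100a1 (adjusted p = 0.0405), -1.50 ± 0.25 for S100a4 (adjusted p = 0.000788), -1.81 ± 0.24 for S100a6 (adjusted p = 0.000126), -1.15 ± 0.23 for S100a10 (adjusted p = 0.00397) and 3.17 ± 0.94 for S100a9 (adjusted p = 0.0464). S100a6 is the member whose called effects had opposite signs. The S100a9 effect was negative in both experiments and the AdTGFb1 libraries of experiment 1 held 8 of its reads.

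Among partners and receptors the same test was passed by Anxa2 (-1.07 ± 0.24, adjusted p = 0.00840), Anxa1 (-1.47 ± 0.27, adjusted p = 0.00204) and Ager (4.28 ± 0.76, adjusted p = 0.00168). The AdCL libraries of experiment 1, which enter each of these differences, were the 3 with the highest endothelial and fibroblast marker sums and were all male. Groups of 3 libraries were not searched for single outlying values.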

How the results depend on the processing

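No paired analysis was possible because the groups share no DC number in the titles. The fall of S100a9 over both experiments was called under all 19 alternatives (-4.78 to -3.63), as were the falls of S100a4, S100a6, S100a10 and S100a11 in experiment 3 and the interactions of S100a4, S100a6 and S100a10 under the alternatives run for them. Over all members 632 values were recomputed, of which 547 kept their direction and side of the threshold, 40 lost a call, 25 gained one and 20 changed sign, none of them a called value. Over both experiments the count of members lower was 3, and became 5 with DESeq2, without a filter or with a term for sex, 6 with an endothelial term, and 1 with a neutrophil term or no experiment term. The sex and endothelial terms can also take up a difference in the vector's effect between the experiments. The neutrophil term can take up the vector's effect in experiment 3. The genes higher became 582 with the sex term. In experiment 1 the members higher became 2 with DESeq2 and without a filter. In experiment 3 the genes higher became 429 with DESeq2 and 392 without a filter. For the interaction the genes higher became 796 with DESeq2 and 715 without a filter, and the genes lower 517 with DESeq2. For experiment 3 against 1 the genes higher and lower became 718 and 664 with DESeq2, and the members higher became 1 with DESeq2 and without a filter.

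Leaving out 1 library gave, over both experiments, 630 to 1007 genes higher, 1063 to 1481 lower and 1 to 5 members lower. It gave 957 to 1529 higher, 1375 to 1914 lower and 1 to 2 members higher in experiment 1, and 149 to 296 higher, 349 to 603 lower and 5 to 6 members lower in experiment 3. For the interaction it gave 274 to 541 higher, 212 to 415 lower, 0 to 1 members higher and 3 to 6 lower, and for experiment 3 against 1 it gave 343 to 471 higher, 227 to 358 lower and 1 to 2 members lower. The values that changed sign were all uncalled. Over both experiments these were S100a1 (-0.16 with the sex term, -0.26 with the endothelial term, -0.0599 to 0.325 leaving out 1 library), S100a6 (0.24 with the neutrophil term), Anxa1 (0.14 without the experiment term, 0.27 with the neutrophil term, -0.19 to 0.10 leaving out 1 library) and Myh9 (-0.0672 to 0.102). In experiment 1 they were S100a4 (-0.0324 to 0.268), S100a8 (-1.40 to 0.44), S100a10 (-0.261 to 0.0540) and S100a11 (-0.31 to 0.10), and in experiment 3 S100a13 (-0.409 to 0.0347). For the interaction they were Anxa11 (-0.0200 to 0.164), Hltf (-0.253 to 0.0942), Il1a (-0.31 to 0.33, and -0.0024 without a filter), Plat (-0.26 to 0.49) and Tpm1 (-0.0275 to 0.403), and S100a1 for experiment 3 against 1 (-0.29 to 0.13). The cause of these changes was not tested. Depth limits S100a8 and S100a9 most, since single AdTGFb1 libraries held 0 or 1 of their reads.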

Other observations

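For each S100 gene the 3 genes nearest in pattern were taken, by the mean absolute difference of centred log2 CPM over the 12 libraries, among 9147 genes at 5 CPM or more. Picked as the 3 smallest, these differences fall below the median of all 9147 by construction, and the median is given for scale only. S100a10 was nearest to Anxa2 (0.13), Crip1 (0.15) and Gcnt2 (0.18), against a median of 0.59 over all these genes. S100a4 was nearest to Adam8 (0.17), Cfp (0.18) and Crip1 (0.20), and S100a11 to Ahnak (0.17), Sept11 (0.17) and Vcl (0.18), with medians of 0.60 and 0.58. S100a6 was nearest to Snrpd2 (0.15), Nsmce2 (0.16) and Mki67 (0.20), with a median of 0.57. S100a1 was nearest to Prkd3 (0.16), Slc25a4 (0.19) and Cs (0.19), and S100a13 to Tsg101 (0.12), Ubxn6 (0.13) and Sep15 (0.13), with medians of 0.51 and 0.44. The nearest genes of S100a9 were Timd4 (0.42), Tnfrsf8 (0.64) and Cd209c (0.73), with a median of 2.15. For S100a8 even the nearest, Tnfrsf9 (1.04), Timp1 (1.17) and Glis3 (1.21), were far off, with a median of 1.93.

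Among the members themselves, S100a4 and S100a10 differed by 0.14 and S100a10 and S100a11 by 0.14 on this measure, although the 2 genes of the first pair lie in different groups on the chromosome. S100a8 and S100a9, whose proteins pair, differed by 1.75. The ratio of S100a6 to S100a4 reads was 0.52 to 0.58 in AdCL and 0.78 to 0.84 in AdTGFb1 of experiment 1, without overlap. In experiment 3 it was 0.55 to 0.80 and 0.77 to 0.85, with overlap. These are descriptions over 12 libraries that share their vectors and experiments, and were not tested.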
